A study of Homo sapiens with 60 samples.

Results

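GDF15 and FGF21 encode secreted proteins that cells under mitochondrial or nutrient stress release into the blood, and they were followed here as 2 genes of the 60675 in the deposited count table. The genes were taken by name, with earlier results of these data known. GDF15 was well expressed in the cells and passed the filter on low counts, as 1 of 16675 genes tested. FGF21 did not pass it, and is described by its counts. The RNA came from HepG2, a long-established tumour line of human liver whose cells still make many hepatocyte proteins. Cells were exposed for 24 h to an ethanol extract of 1 of 6 medicinal plant drugs or of 2 formulas, or to the DMSO vehicle. The series compares transcript levels between herbal extracts given at 3 doses and a vehicle control.

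The 60 libraries form 25 groups. Vehicle had 3 libraries. Coptidis Rhizoma, the rhizome known as a source of the alkaloid berberine, was given at 280, 56 and 11.2 µg/mL with 2 libraries per dose, and Bupleuri Radix at the same doses with 3 per dose. The other 6 extracts were given at 500, 100 and 20 µg/mL. Of these, Aconiti Lateralis Radix Preparata, Cimicifugae Rhizoma and Citri Unshius Pericarpium had 3 libraries per dose, Zizyphi Fructus and the formula Yijung-tang had 2, and the formula Banhasasim-tang had 1. Per the labels, an extract whose concentration for 20% growth inhibition lay under 500 µg/mL was given at that concentration, as were Coptidis and Bupleuri by this rule, and the others at 500 µg/mL, with 1/5 and 1/25 of it as medium and low doses. The cells are 1 tumour line, and no constituent of an extract was measured here. The sources do not say that the libraries of a group came from separate cultures, so the p-values reflect the variation among these libraries alone, which may be technical.

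GDF15 is a distant member of the TGF-beta family. Its receptor, GFRAL with the co-receptor RET, sits in the hindbrain, where the hormone lowers food intake, and its transcription is known to be raised by ATF4, DDIT3 (CHOP) and EGR1. FGF21 is an endocrine fibroblast growth factor that the liver secretes in fasting and in mitochondrial disease. It signals through FGF receptors with the co-receptor KLB (beta-Klotho), and its gene is a target of ATF4 and of the fatty acid sensor PPAR-alpha. ATF4 is the effector of the integrated stress response (ISR), in which kinases that sense mitochondrial, ER or amino acid stress phosphorylate the initiation factor eIF2. ATF4 is controlled largely at translation, so its mRNA is an incomplete measure of its activity.

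Both genes lie on chromosome 19. In GENCODE 29 on GRCh38, GDF15 (ENSG00000130513) spans 18374731 to 18389176 on the plus strand, and its main transcript, of 2 exons, starts at 18386158. The microRNA gene MIR3189 (18386562 to 18386634) lies in the intron of that transcript, and 241 of the 250 bases before the start lie in exons of other GDF15 transcripts. FGF21 (ENSG00000105550) spans 48755559 to 48758333, on the plus strand. The stretches below, from the RefSeq promoter table of GRCh38.p14, show where the letters bound by ATF4 with C/EBP proteins, TGATGNAA (the C/EBP-ATF response element, CARE), occur before the start of FGF21 and of the members of 2 gene lists used below, and the 30 bases next to the start of GDF15. Capitals mark the match on either strand, and each stretch reads 5′ to 3′ along its gene.
FGF21, chr19:48755391-48755523 (plus strand): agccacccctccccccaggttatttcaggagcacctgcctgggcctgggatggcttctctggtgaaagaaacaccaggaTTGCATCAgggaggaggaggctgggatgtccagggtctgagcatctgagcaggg
GDF15, chr19:18386128-18386157 (plus strand): ctataaaggccggtccggcagcatctggtc
ATF3, chr1:212565205-212565234 (plus strand): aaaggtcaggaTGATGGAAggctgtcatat
ASNS, chr7:97872458-97872487 (minus strand): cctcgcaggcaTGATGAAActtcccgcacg
CHAC1, chr15:40953251-40953280 (plus strand): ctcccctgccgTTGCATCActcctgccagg
AARS1, chr16:70289675-70289704 (minus strand): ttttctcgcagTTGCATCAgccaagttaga
In the 250 bases before the start, these letters occurred in 3.19% of 27305 promoters. FGF21 held 1 match, 54 to 47 bases before its RefSeq start, and GDF15 held none. The RefSeq start of FGF21 directly follows the last base of its stretch above and lies before the GENCODE start of the gene, 48755559. Among the promoters found in the table, 1 of 9 ISR factors and 3 of 16 ATF4 targets held a match. Neither GDF15 nor FGF21 held the cyclic AMP response element TGACGTCA (1.77% of promoters), the antioxidant response element TGACNNNGC (11% of promoters), the core of the aryl hydrocarbon receptor element GCGTG (31.9%) or the E-box CACGTG (6.49%), searched on both strands. A match is a description of letters in this window.

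GDF15 levels differed 25.09-fold between the lowest and the highest library, and Coptidis held the highest. In vehicle GDF15 stood at 134.5, 132.5 and 148.2 CPM (counts per 1e+06 counts of a library, after TMM scaling), a mean of 138 ± 8.51 CPM (SD, n = 3). The high dose of Coptidis gave 2900.4 and 3324 CPM, the medium dose 1303 and 1157 CPM, and the low dose 410.4 and 501.4 CPM. All 6 Coptidis libraries lay above every vehicle library, and the 3 doses did not overlap. In order of level among the tested genes, GDF15 moved from place 1314 in vehicle to place 27 at the high dose of Coptidis, where it made up 0.311% of the scaled counts. In bulk RNA, more RNA per cell and more cells that express the gene cannot be told apart.

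**Figure D1:**
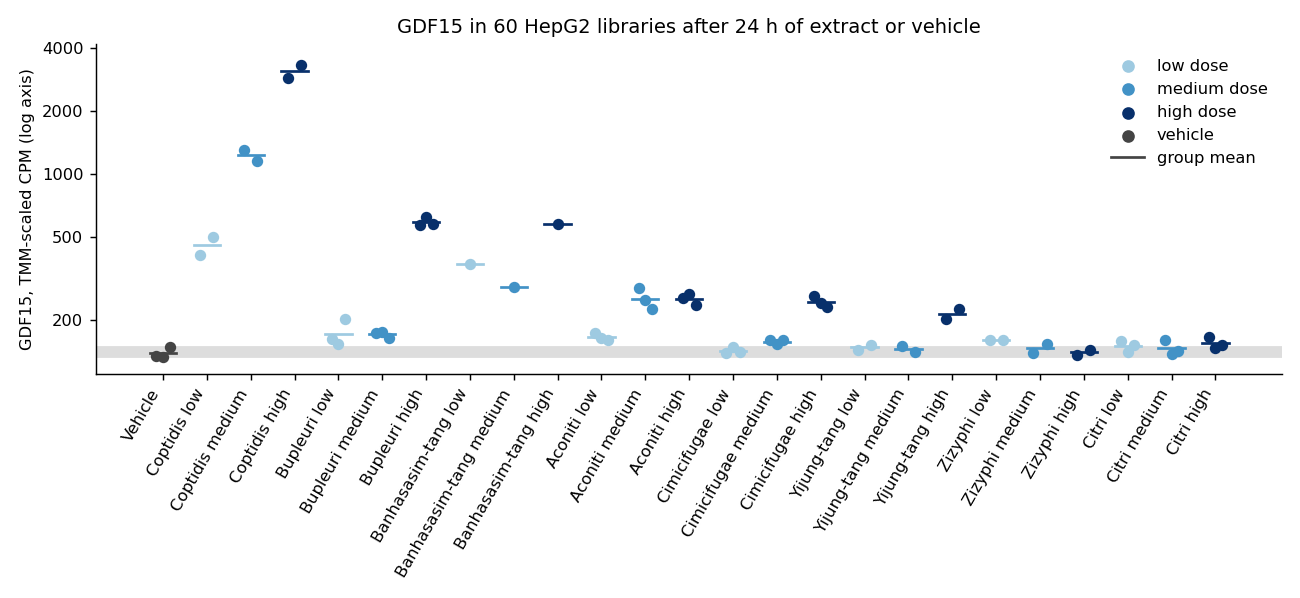
GDF15 level in each of the 60 libraries, in TMM-scaled CPM on a log axis, by extract and dose. The grey band is the range of the 3 vehicle libraries (132.5 to 148.2 CPM), and the 6 Coptidis libraries run from 410.4 to 3324 CPM.

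Bupleuri came next among the replicated extracts. Its high dose gave 571.3, 622.5 and 577.4 CPM, a mean of 590.4 ± 27.97 CPM (SD, n = 3), while its medium dose gave 172.3, 175.8 and 164.4 CPM and its low dose 162.5, 152.8 and 200.8 CPM. Aconiti stood at 253.9, 267.4 and 235.5 CPM at the high dose and at 285.1, 249.1 and 225.0 CPM at the medium dose, which overlap, and at 172.7, 164.1 and 159.3 CPM at the low dose. The high dose of Cimicifugae gave 259.8, 242.2 and 230.9 CPM and that of Yijung-tang 201.3 and 226.2 CPM, and both lay above vehicle. The libraries of Citri (136.9 to 165.1 CPM) and Zizyphi (136.2 to 160.0 CPM) lay close to vehicle. Of the 24 treated groups, 16 had every library above the highest vehicle library, 8 overlapped vehicle and 0 lay below it. In the order of the 25 groups, 9 of the 24 neighbouring pairs had separate ranges. From place 16 (Cimicifugae medium, mean 157 CPM) down to vehicle at place 25 each group overlapped the next in order, and Aconiti medium, Aconiti high and Cimicifugae high (mean 253, 252 and 244 CPM) overlapped each other.

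GDF15 rose against vehicle at every dose of Coptidis. Its log2 fold change was 4.49 ± 0.10 (SE) at the high dose, a 22.5-fold rise, 3.16 ± 0.09 at the medium dose (8.95-fold) and 1.72 ± 0.09 at the low dose (3.30-fold). The adjusted p was 5.39e-35, 5.44e-29 and 2.12e-18 (edgeR's quasi-likelihood test, Benjamini-Hochberg adjustment over all genes tested). These doses called 67.5%, 50.7% and 33.2% of all genes, so a call by itself sets GDF15 little apart there. By size of rise it took place 219, 122 and 136 of 16675. The 21 comparisons with vehicle share the same 3 vehicle libraries. All titles name the same batch, BatchD, and the set name used here is the prefix of the sample number, which the titles do not define. The vehicle libraries have a prefix of their own, so in these comparisons an effect of set and one of treatment cannot be told apart.

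At the high dose of Bupleuri, GDF15 rose 4.26-fold (log2 fold change 2.09 ± 0.09, adjusted p = 1.97e-23 by edgeR's quasi-likelihood test), in a comparison that called 38.9% of genes, and took place 132 by size of rise. At its medium and low doses the log2 fold change was 0.30 ± 0.08 and 0.31 ± 0.08, with an adjusted p of 0.0128 and 0.00619, where 10.9% and 22.3% of genes were called. Those small differences rest on single libraries. The medium-dose call was lost without vehicle library 1 (adjusted p = 0.062), vehicle library 2 (0.0704) or Bupleuri medium library 2 (0.0581), and the low-dose call without Bupleuri low library 3 (0.169), which stood apart from the other two.

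In Aconiti GDF15 rose 1.82-fold at the high dose and 1.83-fold at the medium dose (log2 fold change 0.87 ± 0.08 at both). The adjusted p was 9.6e-11 and 7.12e-11 by edgeR's quasi-likelihood test, with 23.2% and 20.9% of genes called. At the low dose the log2 fold change of 0.25 ± 0.08 had an adjusted p of 0.0427 (9.9% of genes called), and that call was lost without vehicle library 1 or 2 or any single Aconiti low library (adjusted p = 0.0593 to 0.165). Cimicifugae raised GDF15 1.76-fold at its high dose (adjusted p = 4.83e-10, 22.2% of genes called), and Yijung-tang 1.55-fold at its high dose (1.52e-06, 17.3% of genes called).

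No other comparison with vehicle was called, and none was called lower, so GDF15 rose in 11 of 21. In a separate fit of the groups compared with vehicle, Bupleuri medium (adjusted p = 0.139), Bupleuri low (0.0922) and Aconiti low (0.0905) were no longer called. Zizyphi low and Cimicifugae medium were called in that fit (adjusted p = 0.0176 and 0.00461, edgeR) and without the filter (0.0493 and 0.0207). At the medium and low doses of Cimicifugae the log2 fold change was 0.18 (95% interval 0.01 to 0.35; 10.7% of genes called) and 0.04 (−0.13 to 0.21; 6.1%). For Yijung-tang it was 0.06 (−0.13 to 0.25; 6.25%) and 0.09 (−0.10 to 0.28; 1.69%). Citri gave 0.16 (−0.01 to 0.33), 0.08 (−0.09 to 0.25) and 0.12 (−0.05 to 0.29) from high to low dose, with 14.2%, 10.5% and 15.9% of genes called. Zizyphi gave 0.01 (−0.18 to 0.20), 0.07 (−0.12 to 0.26) and 0.21 (0.02 to 0.40), with 3.63%, 1.93% and 2.79% of genes called. Leaving out 1 library lowered those numbers from 606, 321 and 466 genes to as few as 22 (without Zizyphi high library 2), 15 (without Zizyphi medium library 3) and 23 (without Zizyphi low library 2). For Yijung-tang low the number fell from 281 to 27 without its library 2. These intervals bound a difference and do not show that the levels were equal.

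**Figure D2:**
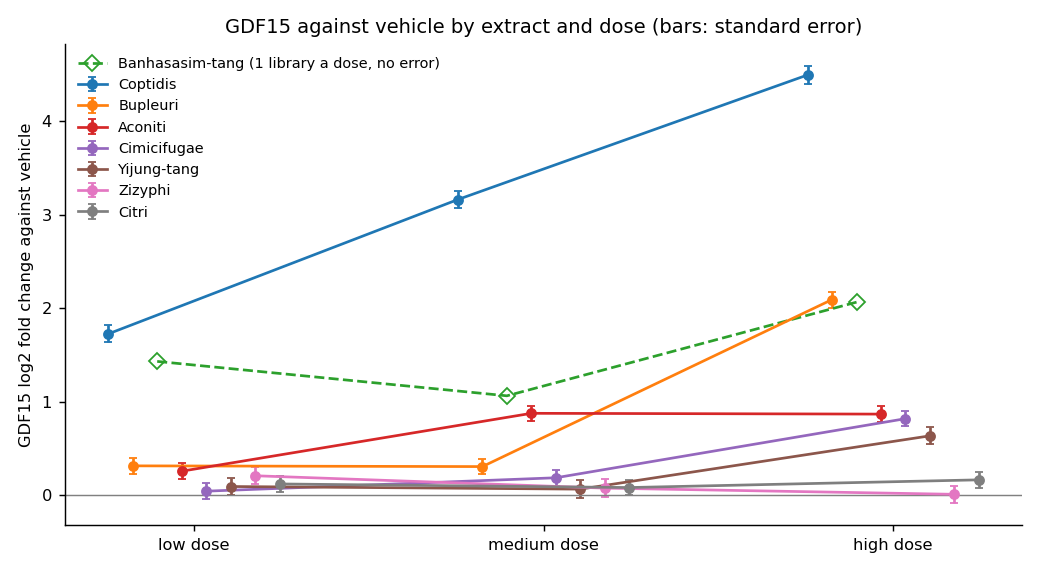
Log2 fold change of GDF15 against vehicle by extract and dose (error bars, SE from edgeR; Banhasasim-tang, dashed, has 1 library per dose and no error). Coptidis falls from 4.49 to 1.72 from high to low dose, Bupleuri from 2.09 to 0.31, and Aconiti stands at 0.87 at both its high and medium doses.

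Comparisons within an extract and within a set use no vehicle library. Between the high and the low dose GDF15 was higher at the high dose in 5 of 7 extracts. The log2 difference was 2.77 ± 0.11 for Coptidis (60.2% of genes called), 1.78 ± 0.08 for Bupleuri (40.2%), 0.78 ± 0.08 for Cimicifugae (7.14%), 0.61 ± 0.08 for Aconiti (14.6%) and 0.54 ± 0.10 for Yijung-tang (7.29%). For Citri it was 0.04 (95% interval −0.13 to 0.21; 0.78% of genes called), and for Zizyphi −0.20 (−0.41 to 0.01; 0.006%). The adjusted p was at most 0.000239 in the 5 called comparisons and 0.96 or more in the other two, by edgeR's quasi-likelihood test. Coptidis and Zizyphi share a set name in their titles, and against Zizyphi of the same rank of dose GDF15 was higher in Coptidis by 4.49 ± 0.11 on the log2 scale at the high dose (22.4-fold), 3.09 ± 0.11 at the medium and 1.52 ± 0.10 at the low dose (64.4%, 44.6% and 16.5% of genes called). Their doses in µg/mL differ. Cimicifugae and Citri, both at 500 µg/mL in 1 set, differed 1.57-fold in GDF15 (4.07% of genes called; adjusted p = 3.02e-07). Bupleuri at 280 µg/mL held GDF15 2.34-fold above Aconiti at 500 µg/mL in the same set (32.6% of genes called), and Coptidis held it 5.29-fold above Bupleuri, both at 280 µg/mL in different sets (61.9% of genes called).

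The transcription factors and feedback genes of the ISR rose together with GDF15 in Coptidis and Bupleuri. At the high dose of Coptidis 9 of 10 rose and 0 fell, with a median log2 fold change of 1.66, where 34.5% of all genes rose and 33% fell and the median over all genes was 0.00. At the medium dose 9 of 10 rose (median 1.45; 26.1% of all genes) and at the low dose again 9 (median 0.64; 17.1%). The largest were PPP1R15A (GADD34, which directs the phosphatase of eIF2), from 16.4 ± 0.627 CPM in vehicle to 289.9 ± 10.3 CPM (SD, n = 2), ATF3, a repressor and activator induced by ATF4, at a log2 fold change of 3.71 ± 0.10, and CEBPB, a partner of ATF4, at 2.60 ± 0.18. ATF4 itself rose 1.97-fold, DDIT3 3.07-fold and TRIB3, a pseudokinase that restrains ATF4, 4.27-fold. ATF5 did not pass the test (log2 fold change −0.05). Against Zizyphi the counts were 9, 9 and 8 of 10 higher from high to low dose (33%, 23.2% and 9.19% of all genes higher) and 0 lower at each.

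At the high dose of Bupleuri all 10 ISR factors rose, with a smaller median of 0.59 (19.9% of all genes rose). ATF3 was at a log2 fold change of 1.77 ± 0.10, CEBPB at 1.27 ± 0.17, PPP1R15A at 1.24 ± 0.06 and TRIB3 at 1.21 ± 0.06, while ATF4 rose 1.21-fold. At the medium and low doses 3 of 10 rose (5.44% and 11.8% of all genes). Coptidis against Bupleuri, both at 280 µg/mL, had 9 of 10 higher and 1 lower (31.4% of all genes higher and 30.5% lower).

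In the high doses of Aconiti, Cimicifugae and Yijung-tang, where GDF15 also rose, 3 to 5 members of this list rose. At the high dose of Aconiti 4 of 10 rose and 2 fell (11.2% of all genes rose and 12% fell; median 0.00). ATF4 fell, from 328 ± 2.72 to 275 ± 7.73 CPM (SD, n = 3 each; log2 fold change −0.25 ± 0.05), and DDIT3 (−0.21 ± 0.11) and TRIB3 (−0.01 ± 0.06) did not pass the test. CEBPB rose by 0.89 ± 0.17, ATF3 by 0.45 ± 0.11 and PPP1R15A by 0.41 ± 0.07 on the log2 scale. At the medium dose, with GDF15 at a mean of 253 CPM against 252 CPM at the high dose, 5 rose and 1 fell (10.6% of all genes rose and 10.3% fell). There PPP1R15A was at 0.74 ± 0.07 and TRIB3 at 0.34 ± 0.06. Bupleuri against Aconiti at the high dose had 8 of 10 higher and 0 lower (16.9% of all genes higher and 15.7% lower). Cimicifugae at the high dose had 5 higher and 0 lower (12.1% of all genes rose), but 3 higher without vehicle library 1, vehicle library 3 or Cimicifugae high library 3. In that of Yijung-tang 3 rose (9.49% of all genes), and 0 or 1 without vehicle library 1 or either Yijung-tang library. For Zizyphi at the high dose 0 rose and 0 fell (2.07% and 1.57% of all genes). CEBPB was called higher in 17 of the 21 comparisons with vehicle, low doses included, so its rise is not particular to groups with high GDF15.

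The amino acid and metabolic targets of ATF4 rose in Coptidis, with exceptions. At the high dose 15 of 20 rose and 4 fell (median 1.67; 34.5% of all genes rose and 33% fell), at the medium dose 17 rose and 2 fell (1.08; 26.1% and 24.6%), and at the low dose 16 rose and 2 fell (0.60; 17.1% and 16.1%). SLC7A11, the cystine importer, rose 19.0-fold, VLDLR, a lipoprotein receptor, 12.1-fold, SESN2, a leucine sensor of the mTORC1 pathway, 8.42-fold, and ASNS, asparagine synthetase, 6.58-fold. The members that fell include ALDH18A1, of proline synthesis, at −1.69 ± 0.04, and it fell in 19 of the 21 comparisons with vehicle. CHAC1, a glutathione-degrading enzyme, had 26 counts over both Coptidis high libraries and 2 over the 3 vehicle libraries. In the high dose of Bupleuri 13 rose and 3 fell (19.9% of all genes rose and 19.1% fell; median 0.33), with SLC7A11 at 1.54 ± 0.08 and ASNS at 0.49 ± 0.06. In Aconiti 3 rose and 8 fell at the high dose (11.2% and 12% of all genes), with ASNS at −0.25 ± 0.06, and 5 rose and 3 fell at the medium dose (10.6% and 10.3%), with ASNS at 0.19 ± 0.06. Cimicifugae at the high dose had 4 higher and 5 lower (12.1% of all genes rose and 10% fell), though 3 lower without vehicle library 2, and Yijung-tang had 4 higher and 4 lower (9.49% of all genes rose and 7.84% fell), though 2 lower without either Yijung-tang library.

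**Figure D3:**
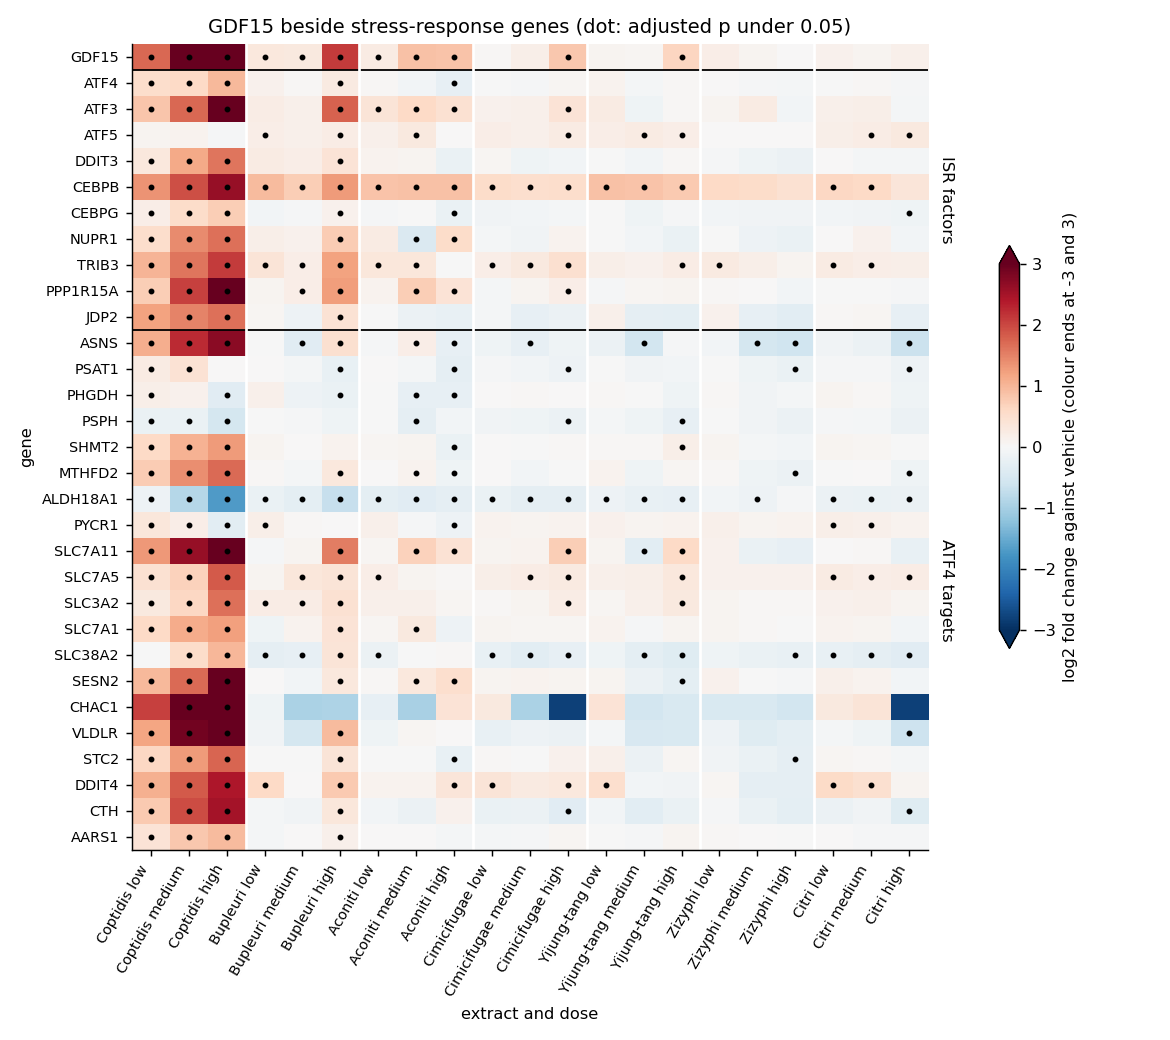
Log2 fold change (colour, ending at −3 and 3) of GDF15, 10 ISR factors and 20 ATF4 targets in the 21 comparisons with vehicle. A dot marks an adjusted p under 0.05. The ISR factors are high in Coptidis and the high dose of Bupleuri.

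Of 8 other genes that regulate GDF15 in other systems, 5 rose and 2 fell at the high dose of Coptidis (34.5% and 33% of all genes). EGR1, an immediate early factor, rose by 5.03 ± 0.09 on the log2 scale and KLF5 by 3.46 ± 0.09. EGR1 also rose 3.38-fold at the medium dose of Aconiti and 1.23-fold at its high dose. At the high doses of Yijung-tang and Cimicifugae, where GDF15 also rose, EGR1 did not rise. In Yijung-tang it fell by 0.33 on the log2 scale (adjusted p = 0.0264, edgeR), and in Cimicifugae it was at −0.10 ± 0.09, not called. In both of those groups 0 of 8 were higher and 2 lower (9.49% of all genes rose and 7.84% fell in Yijung-tang, 12.1% and 10% in Cimicifugae). Bupleuri at the high dose had EGR1 at 0.80 ± 0.09, with 3 of 8 higher and 3 lower (19.9% and 19.1% of all genes). At the high dose of Aconiti 2 of 8 were higher and 1 lower (11.2% and 12%). CDKN1A, the cell cycle inhibitor p21, went from 94.9 ± 1.71 CPM in vehicle (SD, n = 3) to 758 ± 0.173 CPM in the high dose of Coptidis (SD, n = 2). Its log2 fold change was 0.39 ± 0.05 at the high dose of Aconiti and 0.05 ± 0.05 at the medium dose.

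Mitochondrially encoded RNAs were altered in Coptidis. Of the 13 mRNAs of the mitochondrial genome, which encode respiratory chain and ATP synthase subunits, 12 fell at the high dose (median −0.64; 33% of all genes fell), 11 at the medium (−0.74; 24.6% of all genes fell) and 9 at the low dose (−1.05; 16.1% of all genes fell), and 0 rose. MT-ND3 was at −1.15, −1.50 and −1.88 from high to low dose, so its lowest value stood at the dose where GDF15 was lowest. The list was split in this respect. At the high dose against the low dose 6 of the 13 were higher and 4 lower, where 60.2% of all genes were called. The share of counts in the 2 mitochondrial ribosomal RNAs was 2.52% in vehicle and 5.54%, 10.9% and 11.7% in Coptidis from high to low dose. In the other replicated groups it ran from 2.43% to 3.44%. How library preparation bore on these shares was not tested. With all mitochondrially encoded genes left out of the totals and the test, GDF15 kept its direction and its side of the threshold in all 34 comparisons. In the high dose of Bupleuri 1 mitochondrial mRNA rose and 3 fell (19.9% and 19.1% of all genes). MT-CYB was called lower in 17 of the 21 comparisons with vehicle and MT-CO1 in 14, so lower values of these mRNAs are not particular to Coptidis. Of 16 nuclear-encoded respiratory chain and ATP synthase subunits, 2 rose and 7 fell in Coptidis (34.5% and 33% of all genes), and 1 rose and 4 fell in Bupleuri, in both a smaller share than the 67.5% and 38.9% of all genes called. Of 12 mitochondrial chaperones and proteases 4 rose and 3 fell in Coptidis (34.5% and 33% of all genes), with the protease subunit CLPP at 0.78 ± 0.11 and the chaperonin HSPE1 at −1.26 ± 0.14, and 4 rose and 1 fell in Bupleuri (19.9% and 19.1%).

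Most of the 15 ER chaperones and targets of the unfolded protein response fell in the high doses of 4 of the 5 replicated extracts in which GDF15 rose. In the high dose of Coptidis 12 of 15 fell and 2 rose (median −0.78; 33% and 34.5% of all genes), with HSPA5 (BiP, the main ER chaperone) at −1.25 ± 0.04. In Bupleuri 10 fell and 1 rose (median −0.25; 19.1% and 19.9% of all genes), in the high dose of Aconiti 11 fell and 1 rose (−0.36; 12% and 11.2%), and at the medium dose of Aconiti 3 fell and 4 rose (10.3% and 10.6%). In Cimicifugae 10 fell and 1 rose (−0.17; 10% and 12.1%). In Yijung-tang, the fifth, 1 fell and 5 rose (0.02; 7.84% and 9.49%), with SDF2L1, a part of ER chaperone complexes, at 0.77 ± 0.16 and CRELD2 at 0.38 ± 0.09. Some of these genes also moved where GDF15 was not called. DNAJB9 was lower in 17 of the 21 comparisons with vehicle, the high doses of Citri and Zizyphi included, and higher in 1. SDF2L1 was higher in 14 and CRELD2 in 8, the high dose of Citri included, and each was lower in 2. Of the 10 kinases and upstream parts of the ISR, 4 rose and 4 fell in Coptidis (34.5% and 33% of all genes), with EIF2AK3 (PERK, the ER kinase) at −0.65 ± 0.08 and PPP1R15B at 0.93 ± 0.07, and 1 rose and 4 fell in Bupleuri (19.9% and 19.1%). These kinases act through phosphorylation, which RNA does not measure.

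Over the 25 groups, mean log2 CPM of GDF15 followed that of the 10 ISR factors with a Pearson r of 0.962, and of 0.865 over the 22 groups without Coptidis. For the 20 ATF4 targets r was 0.933 and 0.746, for the 15 ER genes −0.861 and −0.454, and for the mitochondrial ribosomal RNA share 0.593 and 0.528. For the mitochondrial mRNA share it was −0.576 and −0.441, and for the mitochondrial chaperones 0.141 and 0.675. By rank over the 25 groups (Spearman's rho) the ISR factors were at 0.866, the ATF4 targets at 0.635, the ER genes at −0.49 and the ribosomal RNA share at 0.611. Among single genes r was 0.942 and 0.849 for TRIB3 and 0.884 and 0.698 for ATF4. Without the low-dose library of Banhasasim-tang, which stood apart, r was 0.976 for the ISR factors over 24 groups. These values describe groups that share libraries' depth and processing, with 3 doses from each extract, and have no p.

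**Figure D4:**
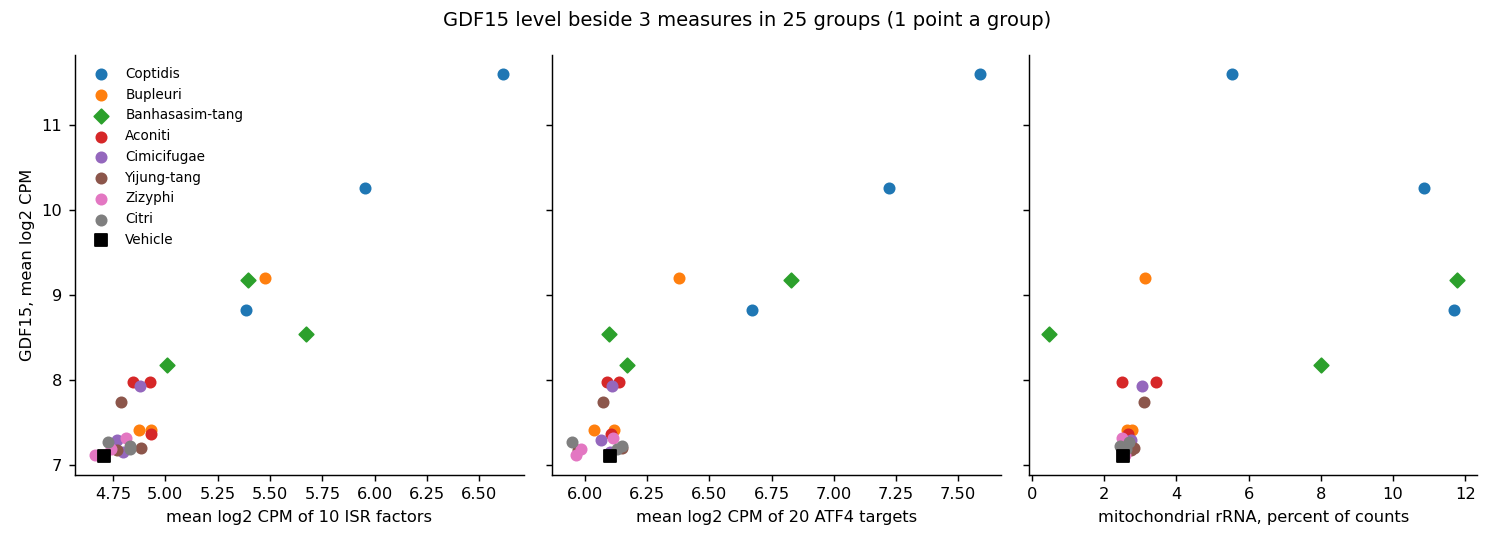
Mean log2 CPM of GDF15 in each of the 25 groups (vertical axes) against the mean log2 CPM of 10 ISR factors, that of 20 ATF4 targets, and the percent of counts in mitochondrial ribosomal RNA. Pearson r is 0.962, 0.933 and 0.593, and the 3 Coptidis groups lie high on the GDF15 axis in each panel.

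Among the 5 genes most like GDF15 in pattern, by Pearson r of mean log2 CPM over the 25 groups among 13069 genes, were JAG1 (0.986), a ligand of Notch receptors, PXDC1 (0.983), ETS2 (0.977), a transcription factor, and GPR157 (0.974). JAG1 stood at 131 ± 2.97 CPM in vehicle, 281 ± 10.3 in the high dose of Bupleuri (SD, n = 3 each) and 867 ± 16.8 in that of Coptidis (SD, n = 2). Without the Coptidis groups the first 5 were SQSTM1 (0.964), the autophagy receptor p62, ERN1 (0.962), the ER stress sensor IRE1, JAG1 (0.961), GPR157 (0.960) and ETS2 (0.959), and 3 of 5 were shared. SQSTM1 rose from 232 ± 5.59 CPM in vehicle to 936 ± 14.2 CPM in the high dose of Bupleuri (SD, n = 3 each). FGF21 was too low for such a ranking.

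Banhasasim-tang, with 1 library per dose, allows no test. GDF15 was at 578, 288.6 and 372.4 CPM from high to low dose, against 132.5 to 148.2 CPM in vehicle. The log2 ratio to the vehicle mean was 2.06, 1.06 and 1.43, where 2.98%, 1.61% and 19.1% of all genes had a log2 ratio of 1 or more. Genes that lay lower than vehicle are not in these shares. By size of ratio GDF15 took place 53, 231 and 1710 of 16675. The median ratio was 0.62, 0.25 and 1.12 for the ISR factors and 0.67, 0.08 and 0.19 for the ATF4 targets. The mitochondrial ribosomal RNA share was 11.8%, 8.01% and 0.485%, and the mitochondrial mRNAs had a median ratio of −3.91 at the low dose. The low-dose library thus stood apart from the other two in its mitochondrial RNA.

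Of the receptors, GFRAL and RET, which bind GDF15, did not pass the filter on low counts. KLB, the co-receptor of FGF21, was expressed at 206 ± 4.93 CPM in vehicle (SD, n = 3) and fell to 26.5 ± 1.05 CPM in the high dose of Coptidis (SD, n = 2), 7.74-fold lower, and to 87.5 ± 2.68 and 172 ± 6.54 CPM at its medium and low doses. KLB in the high dose of Bupleuri was at 140.0 ± 5.07 CPM, 1.47-fold lower. FGFR1, its partner receptor, was at −0.97 ± 0.06 on the log2 scale in Coptidis and −0.64 ± 0.05 in Bupleuri, and FGFR4 at −0.78 ± 0.06 and, not called, −0.09 ± 0.06. Of the 10 receptors and processing enzymes that passed the filter 4 rose and 6 fell in Coptidis (34.5% and 33% of all genes). PCSK5, a proprotein convertase, rose from 0.727 ± 0.105 to 16.0 ± 0.897 CPM, and FURIN, another convertase, rose 2.38-fold.

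Other secreted factors moved with or against GDF15. Of 9 endocrine FGFs and TGF-beta family ligands that passed the filter, 4 rose and 3 fell in Coptidis (34.5% and 33% of all genes). INHBE, an activin subunit made in liver and a target of the ISR, rose 3.69-fold in Coptidis and 1.31-fold in Bupleuri. It was 1.41-fold and 1.49-fold lower at the high and medium doses of Aconiti. INHBE was called lower in 10 of the 21 comparisons with vehicle, the high doses of Citri and Zizyphi included, where GDF15 was not called. TGFB1 rose by 2.29 ± 0.09 on the log2 scale in Coptidis. Of 14 liver-secreted hormones 4 rose and 6 fell in Coptidis, and 5 rose and 4 fell in Bupleuri (19.9% and 19.1% of all genes). IGFBP1, which binds insulin-like growth factors, rose from 41.0 ± 2.98 CPM (SD, n = 3) to 6067 ± 507 CPM (SD, n = 2) in the high dose of Coptidis, 8.80-fold in that of Bupleuri, and 2.65-fold and 2.85-fold at the high and medium doses of Aconiti. ADM2, a peptide of the calcitonin family, rose 9.76-fold in Coptidis and 2.19-fold in Bupleuri, and in Aconiti lay at −0.01 ± 0.11 and −0.03 ± 0.11 on the log2 scale, neither called.

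FGF21 was hardly expressed, and its few counts lay mostly in Coptidis libraries. In all it had 25 counts in 60 libraries, with a highest value of 4, and 14 libraries held any. Coptidis had 4 and 2 counts at the high dose, 4 and 4 at the medium and 1 and 1 at the low dose, so that all 6 libraries held a count. Bupleuri had 2, 1 and 1 counts at the high dose and 1 count in 1 library at each of the other doses. Zizyphi, Aconiti and Banhasasim-tang had 1 count each over their libraries. Vehicle, Citri, Cimicifugae and Yijung-tang had 0.

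**Figure D5:**
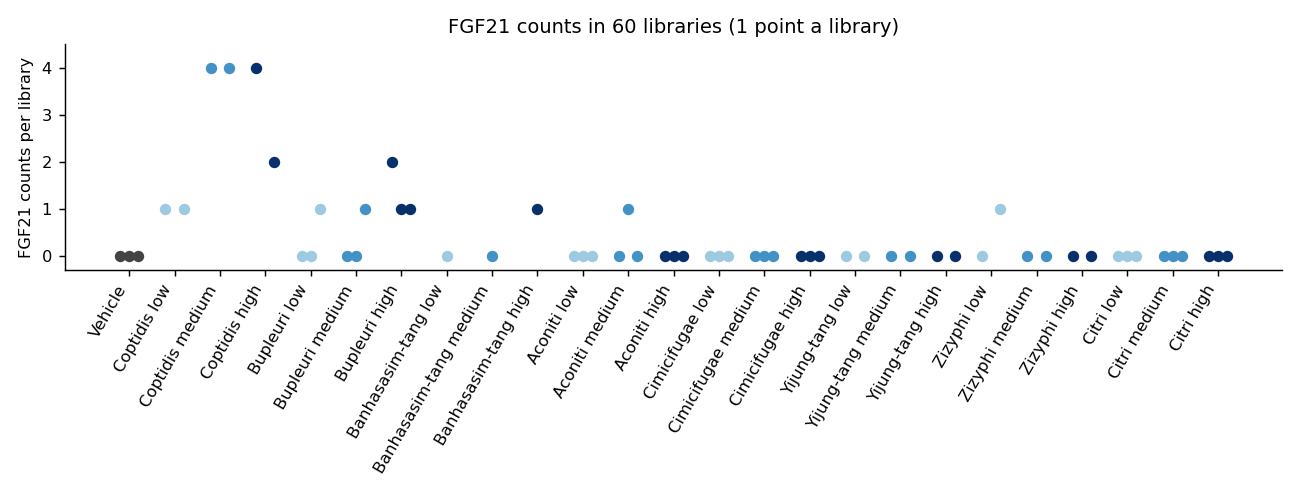
FGF21 counts in each of the 60 libraries, by extract and dose. Coptidis holds 16 of the 25 counts and the highest library value of 4, and vehicle holds 0.

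Summed over libraries, FGF21 was at 0.125 CPM in Coptidis (16 counts; 95% Poisson interval 0.0714 to 0.203) and 0.0262 CPM in Bupleuri (6 counts; 0.00961 to 0.0570), and vehicle, at 0 counts, had an interval of 0 to 0.0540 CPM. Against a floor of 3 counts over the 3 vehicle libraries (0.0439 CPM), the point value of Coptidis was at least 2.85-fold higher, a ratio that leaves out the counting error of Coptidis itself, and no bound can be given for Bupleuri. The intervals of Coptidis, with its 3 doses pooled, and vehicle did not overlap. At the low dose alone the interval was 0.00547 to 0.163 CPM, which overlapped that of vehicle. The lower ends at the high and medium doses were 0.0567 and 0.0768 CPM. Against Zizyphi, of the same set, the ratio was 19.2 (95% counting interval 2.98 to 804). Over 6 libraries of each, with 3 doses pooled, the means were 0.126 ± 0.0715 and 0.00747 ± 0.0183 CPM (SD, n = 6 each). Each SD includes differences between doses. A two-sided exact permutation test gave p = 0.00433, where the smallest possible is 0.00216. This p cannot decide whether the extracts differ, because the test was chosen after seeing the counts. It also permuted libraries of different doses as if they were replicates. In edgeR's quasi-likelihood test without the filter (33790 genes), FGF21 was called in 3 of 34 comparisons, Coptidis high (adjusted p = 0.0253) and medium (0.0195) against vehicle and Coptidis high against Zizyphi high (0.0498), and 4 had an unadjusted p under 0.05. With the filter these 3 comparisons called 67.5%, 50.7% and 64.4% of genes, so a call by itself sets FGF21 little apart. Intervals and floors cover counting error only. Per kilobase of exon, the level of GDF15 in the high dose of Coptidis was 1491 CPM and that of FGF21 0.118 CPM. From the medium to the high dose of Coptidis the summed FGF21 counts went from 8 to 6, where GDF15 went from 1230.1 to 3112 CPM.

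Of 10 known regulators of FGF21, 3 rose and 5 fell in the high dose of Coptidis (34.5% and 33% of all genes, as for the next 2 lists). Of 10 PPAR-alpha targets that passed the filter 4 rose and 6 fell at the high dose, with PLIN2, a lipid droplet protein, at 2.71 ± 0.05 and FABP1, a fatty acid binding protein, at −3.09 ± 0.19. Of 7 ChREBP targets, which respond to carbohydrate, 0 rose and 5 fell, and NR1H4, the bile acid receptor FXR, was at −3.53 ± 0.09. PPARA mRNA was at −0.02 ± 0.12 and did not pass the test. In Bupleuri CPT1A, the carnitine palmitoyltransferase of mitochondrial fatty acid entry, rose 2.47-fold and CREB3L3, a liver factor that acts with PPAR-alpha, was at 0.88 ± 0.11.

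The libraries held 18015555 to 29549531 counts. The 8 hepatocyte markers summed to 43110 to 43840 CPM in vehicle and to 26603 to 46989 CPM in treated libraries, so hepatocyte RNA was present in every library. These markers do not identify the line itself. Markers of fibroblasts (5 genes, 10.0 to 11.2 CPM in vehicle and 4.91 to 17.3 CPM in treated libraries) and endothelium (4 genes, 3.60 to 4.23 and 2.77 to 7.01 CPM) were low. Biliary markers (4 genes) summed to 486 to 504 and 449.9 to 787 CPM, and leukocyte markers (4 genes) to 1378 to 1394 and 536 to 1699 CPM, of which LYZ made up 1358 CPM in vehicle. DCN, KDR and PTPRC were at 0 counts in all libraries.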

How the data were processed

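The members and gene lists were chosen with earlier results of these data known. The authors deposited RSEM expected counts per gene, not normalized. The submitters' processing notes list STAR 2.7.3a, RSEM 1.3.3, Trim Galore 0.6.5 and FastQC 0.11.9, and the build GRCh38. The annotation they counted on is not given in the sources. Per the labels, RNA integrity numbers were above 7 and reads were 100 bp long. RSEM divides reads that match several genes. The sample labels give 0.1% DMSO and the series text 2%, and for Coptidis and Zizyphi the batch letters in titles and descriptions differ. The table has 207 further columns, of no sample in these groups, which were left aside. Gene names came from a name table, which matched 56558 IDs.

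Expected counts (8.75% of values not whole) were rounded. The 22 replicated groups (57 libraries) shared 1 fit in edgeR 4.0.16 (glmQLFit with robust estimation, glmQLFTest) in R 4.3.3 with TMM scaling, 35 residual degrees of freedom and a common biological coefficient of variation of 6.14%. After the filter by group 16675 genes remained, and 44000 were not tested. Benjamini-Hochberg adjustment was made within each of 34 comparisons, with a threshold of 0.05. The SE was derived from the log2 fold change and its quasi-likelihood F. FGF21 fell below the filter, so its planned test could not be run. Its sums were given exact Poisson intervals at 95% and a floor of 3 counts. Banhasasim-tang was described by log2 ratios with a prior count of 2. The median log2 fold change over all genes ran from −0.02 to 0.02. No pair of replicates (48 pairs) agreed within sampling noise.

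The rule for named genes took GDF15 and FGF21 in each group, and from each list, in each high-dose comparison with vehicle, up to 3 called members of at least 1 CPM with the largest change. It added ATF4, DDIT3, TRIB3, ASNS, INHBE, CDKN1A and the receptors, and the 5 genes most like GDF15 among genes of at least 1 CPM. Values of these genes at other doses follow. ATF5, PPARA and FURIN, and some further list genes shown as examples, were chosen after their values were seen. Some genes and 1 list are not reported here. Of 191 list genes 10 were below the filter. Alternatives were RLE scaling, DESeq2 1.42.0, no filter (33790 genes), a replicate block, a separate fit of the groups compared with vehicle, mitochondrially encoded genes left out, a fit less the library that stood apart (Bupleuri low, 3), leaving out each library in turn (57 refits) and a prior count of 5. Relations without the Banhasasim-tang low dose, FGF21 counts not rounded and the exact permutation test were added after seeing the data. The test was tested on simulated data.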

Additional observations from a re-analysis of the deposited data

How the results depend on the processing

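GDF15 kept its direction and its side of the threshold under every alternative run in 26 of 34 comparisons, and in 396 of 418 values. RLE scaling, DESeq2 and leaving out the mitochondrially encoded genes changed no call. The fit less the Bupleuri low library that stood apart lost the call of Bupleuri low (adjusted p = 0.169, edgeR) and changed no other. Without the filter and in the separate fit, Zizyphi low was called (0.22, adjusted p = 0.0493, and 0.21, 0.0176), as was Cimicifugae medium (0.20, 0.0207, and 0.19, 0.00461). The separate fit lost Bupleuri medium (0.30, 0.139), Bupleuri low (0.31, 0.0922) and Aconiti low (0.25, 0.0905). Leaving out 1 library gave log2 fold changes of 0.27 to 0.35 for Bupleuri medium, 0.19 to 0.39 for Bupleuri low, 0.22 to 0.30 for Aconiti low, −0.023 to 0.058 for Zizyphi high, −0.0094 to 0.15 for Zizyphi medium, and −0.0055 to 0.086 for Citri high against low, the last 3 not called in any refit. The cause was not tested.

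The replicate numbers paired no comparison (correlations −0.0509 to 0.136). In 3 of 18 comparisons with 3 shared numbers every library correlated best with its own. With the replicate block the log2 fold change for Coptidis high was 4.51 (adjusted p = 9.48e-34), and no GDF15 call changed. The number of genes called moved by over 1.5 times in the separate fit, from 6491 to 4289 for Bupleuri high, 1822 to 197 for Bupleuri medium, 3716 to 387 for Bupleuri low, 3487 to 5302 for Aconiti medium, 1650 to 3677 for Aconiti low, 2890 to 5157 for Yijung-tang high, 1191 to 2683 for Cimicifugae high against low, 6711 to 4073 for Bupleuri high against low, 2435 to 4133 for Aconiti high against low, 1215 to 2905 for Yijung-tang high against low and 679 to 1442 for Cimicifugae against Citri. Less the Bupleuri low library it was 3028 for Bupleuri medium, 2927 for Aconiti low, 2113, 3693 and 2023 for Cimicifugae, Aconiti and Yijung-tang high against low, and 1256 for Cimicifugae against Citri. Among comparisons in which GDF15 was not called, it rose 1.67 to 6.75 times in 12 in the separate fit, 1.52 to 3.46 times in 12 less that library, and 1.83 to 56 times in 3 without the filter. For Bupleuri low it was 2051 without library 3, 5697 without library 1 and 2259 without vehicle library 1.

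List counts under alternatives were run for the high-dose comparisons with vehicle, and 393 of 2640 moved by over 1.5 times. Rounding did not alter the summed FGF21 counts. At 1 to 4 counts a library, a difference in FGF21 between other groups was not detectable at this depth.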
